A study of Mus musculus with 3 samples.

Results

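The nuclear genes for the subunits of the oxidative phosphorylation complexes were followed across the 3 arrays of the series. A gene was taken as a member when a probe set with exactly 1 gene symbol carried a name of the Nduf (complex I), Sdh (complex II), Uqcr (complex III), Cox4 to Cox8 (complex IV) or Atp5 (complex V) series, and its brightest such probe set by mean log2 signal stood for it. This gave 81 of the 18193 genes that have a probe set of 1 symbol, with 35 in complex I, 4 in complex II, 8 in complex III, 17 in complex IV and 17 in complex V. The measured value was the MAS5 signal, a linear intensity per probe set that the authors had scaled to a trimmed mean of 500 on each array. Signals given as 3 values in a row are in the order WT, RASSF9-/- array 1 (array 1) and RASSF9-/- array 2 (array 2).

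The arrays measured primary epidermal keratinocytes of neonatal ICR mice, with 1 WT mouse and 2 RASSF9-/- mice, 1 culture plate and 1 array each. RASSF9-/- mice are homozygous for the insertion of an LMP1 transgene of Epstein-Barr virus that replaced a segment of the intron behind the first exon of RASSF9, so every RASSF9-/- culture also carried the transgene, and the mutation exists as a single insertion line. All cultures were confluent monolayers in low-calcium keratinocyte serum-free medium. The labels give 24 h of culture for WT and 48 h for RASSF9-/-, whereas the methods give every sample the same time, so genotype cannot be told apart from time in culture if the labels are right. The image names in the labels carry the same stamp for WT and RASSF9-/- array 1 and a different stamp for RASSF9-/- array 2, so the comparison of array 1 with WT is the one within a stamp.

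Oxidative phosphorylation takes place in the inner mitochondrial membrane. Complex I (NADH dehydrogenase) and complex II (succinate dehydrogenase, which is also an enzyme of the citrate cycle) pass electrons to coenzyme Q, complex III passes them to cytochrome c, and complex IV (cytochrome c oxidase) passes them to oxygen. Complexes I, III and IV pump protons, and complex V (ATP synthase) uses the resulting gradient to make ATP. Most subunits are encoded in the nucleus and imported, while core parts of complexes I, III, IV and V are encoded in mitochondrial DNA, and the genes of mitochondrial DNA were not analysed here. Some complex IV subunits exist as tissue isoforms used in muscle, lung or testis. In the epidermis, mitochondrial respiration accompanies the differentiation of keratinocytes.

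The nuclear subunit genes are known targets of the transcription factors NRF1, GABPA (an ETS factor), YY1 and the ERR receptors, so their promoters were read for the core letters of these sites on both strands. RefSeq promoter windows (assembly GRCm38.p6) reach from 250 bases before to 50 bases after a start and were found for 66 of the 81 members, in 71 windows. The GABPA core CCGGAAG stood in 17 member windows (23.9%) and in 8.86% of the 32851 windows of all genes. The ERR core AAGGTCA stood in 8 member windows (11.3%, against 4.72% of all), the NRF1 core GCGCATGCG in 7 (9.86%, against 1.75%) and the YY1 core AAGATGGCG in 6 (8.45%, against 1.40%). The YY1 core begins with the same 3 letters that end the GABPA core, so a stretch can hold both overlapping, which is not the case in Atp5j below. A match describes these letters only and is no evidence of binding. The 120 bases just before the start are shown for 1 member of each complex with a match, and for Atp5g1 and Cox7a2l, which have the values described below and no match in the stretch shown. Capitals mark the matched core: NRF1 in Ndufa8, GABPA in Sdhd, Uqcrh and Cox6a1, and YY1 followed by GABPA in Atp5j.
Ndufa8, chr2:36049339-36049458, minus strand: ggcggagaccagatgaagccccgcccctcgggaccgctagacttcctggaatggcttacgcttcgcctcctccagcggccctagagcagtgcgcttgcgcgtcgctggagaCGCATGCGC
Sdhd, chr9:50603850-50603969, minus strand: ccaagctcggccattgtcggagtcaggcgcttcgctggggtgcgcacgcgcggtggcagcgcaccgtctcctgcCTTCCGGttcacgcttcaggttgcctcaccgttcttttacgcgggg
Uqcrh, chr4:116075071-116075190, minus strand: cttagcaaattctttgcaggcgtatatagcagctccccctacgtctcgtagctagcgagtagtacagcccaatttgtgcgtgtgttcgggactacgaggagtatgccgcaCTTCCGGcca
Cox6a1, chr5:115348959-115349078, minus strand: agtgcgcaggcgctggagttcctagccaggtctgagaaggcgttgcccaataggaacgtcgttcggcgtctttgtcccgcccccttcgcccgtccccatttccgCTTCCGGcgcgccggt
Atp5j, chr16:84834977-84835096, minus strand: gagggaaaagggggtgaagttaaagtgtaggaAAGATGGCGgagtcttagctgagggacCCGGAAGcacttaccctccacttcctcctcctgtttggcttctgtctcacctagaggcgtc
Atp5g1, chr11:96075632-96075751, minus strand: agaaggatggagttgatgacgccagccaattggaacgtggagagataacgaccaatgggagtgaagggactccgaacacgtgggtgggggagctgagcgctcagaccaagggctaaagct
Cox7a2l, chr17:83514334-83514453, minus strand: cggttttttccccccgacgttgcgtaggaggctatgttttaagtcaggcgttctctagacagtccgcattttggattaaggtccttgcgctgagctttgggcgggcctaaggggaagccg
In Ndufa8, Sdhd, Uqcrh and Cox6a1 the core is read on the strand opposite to the gene, so it appears as its reverse complement. Among the genes shown, Ndufa8, an accessory subunit of complex I, had signals of 3666, 4506 and 4774, with both RASSF9-/- arrays above WT. Atp5j, the coupling factor 6 of complex V, had 9498, 9917 and 9622, with the 3 arrays close together.

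Signals of the disrupted gene and of marker genes were read first. Rassf9 had a signal of 478 in WT, 59.6 on RASSF9-/- array 1 and 120 on RASSF9-/- array 2. Of 12 keratinocyte markers on the array, 11 were above background on each array, and Krt15 was not. Their summed signals were 180560, 141080 and 173160, with 6 of the 11 below WT on both RASSF9-/- arrays, 2 above, and a median log2 difference of -0.34 on array 1 and -0.01 on array 2. Trp63, the p63 factor of basal keratinocytes, had 3239, 1460 and 1543. The 9 melanocyte markers were also above background on every array, with summed signals of 30003 in WT, 25680 on array 1 and 36066 on array 2, so RNA of melanocyte genes was present in every culture. Summed fibroblast markers were 3520, 5252 and 1673 in the same order, but 2081, 1565 and 1202 without Postn, and 6 of 9 tested were below WT on both arrays and 0 above. Skeletal muscle markers summed to 1592, 3150 and 4145 (8 of 13 in background on all arrays), or 662, 665 and 722 without Acta1. Immune markers summed to 1271, 1694 and 2041 (486, 902 and 355 without Csf1r), endothelial markers to 757, 1195 and 1167, and adipocyte markers to 2120, 451 and 607 (66.0, 129 and 111 without Cidea). The parts of these cell types and of RNA quality in the results below were not tested. The ratio of 3' to 5' control signals was 0.841, 0.939 and 0.832 for Gapdh and 1.43, 1.41 and 1.37 for beta-actin.

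As deposited, 48 of 75 subunit genes (64%, against 33.6% of all genes tested) had slightly higher signals on both RASSF9-/- arrays than in WT. With arrays scaled to a common median, 33 did (44%, against 32.6% of all genes). That scaling also turns the members' median on array 1, the one comparison within a stamp, to -0.03. No member differed from WT past the test. The differences were small for nearly every member and tighter than those of other genes. As deposited, array 2 was above array 1 for most members of complexes I, III and V, and for 52 members in all (69.3%, against 45.1% of all genes). Of the 1370 genes at or above the 95th percentile of signal, 717 were also higher on array 2. With a common median array 2 was above array 1 for 69 members and for most members of every complex. That scaling raises array 2 against array 1 for every gene, and the share of all genes under it was not counted. Single genes stood further from WT: Ndufb1 and Atp5g1, each read from 1 probe set above background, had higher signals on both RASSF9-/- arrays. Cox7a2l had a low signal on array 2 alone.

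A gene was tested when its mean log2 signal was at least 82.7 as a signal, which is the 50th percentile over all probe sets other than controls. This kept 75 members, with 34 of complex I, 4 of complex II, 8 of complex III, 12 of complex IV and 17 of complex V, among 11089 genes. Cox4i2, Cox6a2, Cox7a1, Cox7b2, Cox8b and Ndufb4 did not reach it. Ndufa4l2 reached it only through WT, so it had to differ. The background limit was a signal of 78.4, the highest signal of the bacterial control probe sets, and 73 members were above it on every array.

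By limma, 0 of the 75 members passed an adjusted p of 0.05, where 0.0812% of all genes tested did. Limma without an intensity trend and the methods' t-test after adjustment also called 0 members. At an unadjusted p of 0.05, limma had 1 member, or 1.33%, against 5.55% of all genes, and this was Ndufa4l2, which had to differ. The test uses the spread of the RASSF9-/- pair for WT as well, so p-values measure the spread between these 2 mice, and 3 arrays give little precision. The 95% interval of the difference included 0 for 74 of the 75 members and lay wholly between -1 and 1 on the log2 scale for 39 of them. Fewer cells of a type and less RNA per cell cannot be told apart in these bulk samples.

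On both RASSF9-/- arrays, 48 members (64%) were above WT, against 33.6% of all genes tested. With arrays scaled to a common median the shares were 44% and 32.6%, and after quantile normalization 52% and 35.4%. There were 11 members (14.7%) below WT on both arrays, against 32.7% of all genes, and 16 (21.3%) on opposite sides of WT on the 2 arrays, against 33.7%. These counts carry no test, because both differences share the WT array. Among the genes at or above the 95th percentile of signal, where 61 members lie, 40 members were above WT on both arrays, or 65.6%, against 40.9% of the 1370 genes there. No member was at least 2-fold above WT on both arrays (2.89% of all genes), and Ndufa4l2 alone was at least 2-fold below it on both (2.24% of all genes). The distance from WT to the nearer RASSF9-/- array exceeded the distance within the pair for 25 members (33.3%), which is near the 32.3% of all genes, with 21 of them above WT (28%, against 17.4% of all genes) and 4 below (5.33%, against 14.9%).

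The median log2 difference of the 75 members from WT was 0.10 on array 1 and 0.20 on array 2, where all genes tested had medians of 0.05 and -0.04. Relative to all genes, the members stood at 0.05 on array 1 and 0.24 on array 2. The 1370 genes at or above the 95th percentile of signal had medians of 0.06 and 0.05. Relative to these, the 61 members among them stood at 0.03 and 0.15. Scaling the arrays to a common median shifts each log2 difference of array 1 by -0.12 and each one of array 2 by 0.15. The median of all genes is then -0.08 and 0.11, and the members' median on array 1 turns to -0.03, while array 2 stays above WT at 0.36. The spread of the members was narrow. The interquartile range of their differences was 0.29 on array 1 and 0.33 on array 2, against 0.65 and 0.80 for all genes. On both arrays 62 members (82.7%) stayed within 1.5-fold of WT, against 53.1% of all genes and 66.6% of the genes at or above the 95th percentile of signal. Setting signals under the background limit to it left the members' medians at 0.10 and 0.20.

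**Figure D1:**
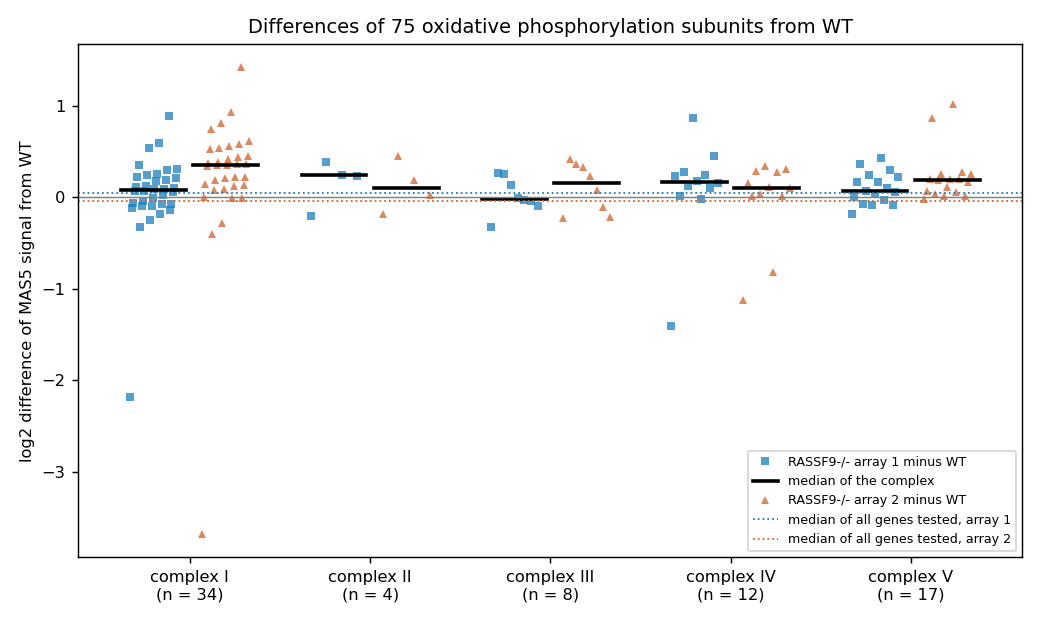
Log2 difference of MAS5 signal from WT for each of the 75 tested subunit genes, by complex, with squares for RASSF9-/- array 1, triangles for RASSF9-/- array 2, black bars for the median of a complex and dotted lines for the medians of all genes tested. Complex I has its array 2 median at 0.36 and its array 1 median at 0.08 (-0.04 with arrays scaled to a common median), and the lowest points are Ndufa4l2.

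The 2 RASSF9-/- arrays differed from each other in the same range. On array 2, 52 members (69.3%) had a higher signal than on array 1, against 45.1% of all genes. The median log2 difference between the arrays was 0.09, against -0.07 for all genes. Among the 1370 genes at or above the 95th percentile of signal, where 61 members lie, 717 were higher on array 2, with a median of 0.02. With arrays scaled to a common median, 69 members were higher on array 2. That scaling shifts array 1 by -0.12 and array 2 by 0.15, so it raises array 2 against array 1 for every gene. The share of all genes under it was not counted. As deposited, array 2 was the higher for 27 of 34 members of complex I, with a median of 0.20. The same order stood in 13 of 17 of complex V and 5 of 8 of complex III, or in 32, 16 and 8 members of complexes I, V and III with a common median. In complex IV, 7 of 12 members were lower on array 2, with a median of -0.10, but with arrays scaled to a common median only 2 of the 12 were. Array 2 also differs from the other arrays in its stamp, and its melanocyte marker sum was the highest and its fibroblast marker sum the lowest of the 3. Whether these bear on the members was not tested.

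Complex I takes electrons from NADH. Of its 34 tested members, 20 were above WT on both arrays, 4 below on both and 10 on opposite sides, with median log2 differences of 0.08 on array 1 and 0.36 on array 2, and scaling to a common median turned the first to -0.04 and left 12 members above WT on both. Array 1 was above WT in 21 members and array 2 in 29. The 6 core subunits, which hold the flavin and iron-sulfur centres, had medians of 0.10 and 0.29, and 5 of them (Ndufs3, Ndufs7, Ndufs8, Ndufv1 and Ndufv2) were above WT on both arrays, or 2 of them with a common median. The 26 accessory subunits had medians of 0.06 and 0.36, with 14 above WT on both arrays and 3 below. The other 2 of the 34 are Ndufa4 and Ndufa4l2, which are counted here by their names and described below.

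Ndufs8, a core subunit that carries iron-sulfur clusters, had a signal of 6515 in WT, 9829 on array 1 and 8281 on array 2. The mean log2 difference was 0.47 (standard error 0.32, adjusted p = 1.00 from limma). Both RASSF9-/- arrays lay above WT, as they did in 4 of its 5 other probe sets. Ndufb1, a small accessory subunit, had signals of 235 in WT, 437 on array 1 and 630 on array 2. Its log2 difference of 1.16 (standard error 0.50) was the highest of the members tested, a 2.23-fold mean difference, with an adjusted p of 0.914 from limma. The WT value lay apart from the pair, and the pair itself differed. Ndufb1 has 1 probe set, so no other probes can be set beside it. For Ndufs4, an accessory subunit needed for assembly of the NADH-binding arm, the signals were 1890, 2193 and 3610, which puts array 2 far above the other arrays. Its second probe set had the same order, with 380, 432 and 544, while a dim probe set had both RASSF9-/- arrays below WT, with 156, 109 and 117, and the mean over its probe sets brings the difference from 0.57 to 0.08.

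Ndufa4 and Ndufa4l2 are paralogues. Ndufa4 carries a complex I name but is now known as a subunit of complex IV, and its signals were 4892 in WT, 7137 on array 1 and 7237 on array 2. This log2 difference of 0.55 (standard error 0.31, adjusted p = 1.00 from limma) had a pair that lay close together and above WT. Ndufa4l2, known to be induced in low oxygen, had a signal of 351 in WT, 77.7 on array 1 and 27.4 on array 2. Both RASSF9-/- arrays were in the background, so the signal was at least 4.48-fold lower there. As the filter was passed through WT alone, this bound is a description and its p-value is not used. It has 1 probe set, so no other probes can be set beside it.

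Ndufa5, Ndufa9 and Ndufs4 had the largest log2 differences of array 2 over array 1 among the members tested, at 0.84, 0.72 and 0.72. Ndufa5, an accessory subunit of the arm that reaches into the matrix, had signals of 2174 in WT, 2037 on array 1 and 3649 on array 2. Its other probe set gave 1031, 1527 and 2272, so array 1 stood on different sides of WT by probe set while array 2 was above WT in both. Ndufa9, which lies where the 2 arms of the complex meet, had 4151 in WT, 3776 on array 1 and 6234 on array 2. By the brightest probe set, both had WT inside the range of the pair. Ndufa12, an accessory subunit, had signals of 5558, 6655 and 9789, and it is named for its probe sets after its values were seen. Of its 3 other probe sets, 2 were above WT on both arrays.

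Below WT in complex I, Ndufv3, an accessory subunit of the NADH-binding module, had a signal of 5734 in WT, 4571 on array 1 and 4360 on array 2. Its log2 difference was -0.36 (standard error 0.32, adjusted p = 1.00 from limma), and the pair lay closer together than either lay to WT. Ndufb9, an accessory subunit, had 6627, 6585 and 6614, which is flat, and its difference of -0.01 becomes 0.01 with arrays scaled to a common median. Ndufb4 is not measured well by the rule. Its only probe set of 1 symbol was in the background on every array, while the probe set it shares with Ndufb4b and Ndufb4c, which the rule leaves out, had 5245 in WT, 6775 on array 1 and 7254 on array 2.

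Complex II oxidises succinate and has only nuclear subunits, all 4 of which were tested. Sdha, the flavoprotein that holds the active site, had signals of 2836 in WT, 3354 on array 1 and 3233 on array 2. Sdhb, the iron-sulfur subunit, had 5086, 6005 and 6955. By these probe sets both genes had the 2 RASSF9-/- arrays above WT, at log2 differences of 0.22 and 0.35. A second Sdha probe set above background had 2058, 1657 and 2104, with array 1 below WT, and the mean over all Sdha probe sets, of which 2 are in the background, is 0.84. The membrane anchors went different ways. Sdhc had 3586 in WT, 3113 on array 1 and 3174 on array 2, a difference of -0.19, and its second probe set was also below WT on both arrays. Sdhd had 2419, 3163 and 2463, which puts array 1 apart from WT, but its second probe set had 228, 196 and 393, which puts array 2 apart. The standard errors of the 4 differences were 0.32 to 0.36 and the adjusted p was 1.00 from limma for each. Complex II medians were 0.24 on array 1 and 0.11 on array 2, above WT under each scaling.

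Complex III had 3 members above WT on both arrays, 3 below and 2 on opposite sides, and all 8 stayed within 1.5-fold. Its medians were -0.02 on array 1 and 0.16 on array 2, or -0.14 and 0.31 with a common median. The 3 catalytic and core subunits (Uqcrfs1, Uqcrc1 and Uqcrc2) had medians of -0.03 and 0.34, and the 5 small subunits -0.01 and -0.11. Uqcrfs1, the Rieske iron-sulfur protein, had signals of 4379 in WT, 4828 on array 1 and 5534 on array 2. Uqcrq and Uqcrb, small subunits next to cytochrome b, had 8280, 9943 and 10697, and 26899, 32222 and 31705, respectively. By these probe sets all of them had both RASSF9-/- arrays above WT, but a second Uqcrb probe set had 4181, 3583 and 5588, with array 1 below WT. Uqcrh, the hinge protein near cytochrome c1, had 10238 in WT, 9999 on array 1 and 8808 on array 2. Uqcr10 had 5067, 4047 and 4704, and Uqcr11 had 5379, 5354 and 4597. In these 3 genes both arrays were below WT, although array 1 of Uqcrh and Uqcr11 differed from it by only -0.03 and -0.01 on the log2 scale. A second Uqcrh probe set had 6926, 5414 and 5815, with log2 differences of -0.36 on array 1 and -0.25 on array 2.

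**Figure D2:**
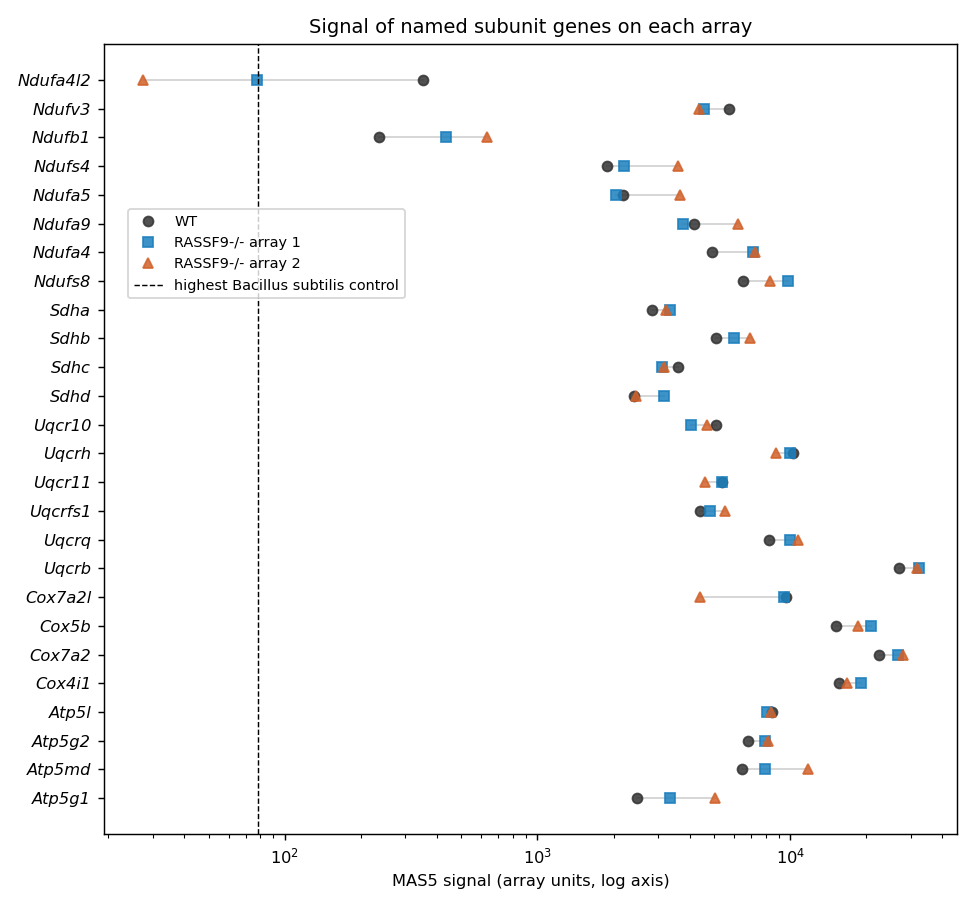
MAS5 signal on a log axis for 26 subunit genes, with circles for WT, squares for RASSF9-/- array 1 and triangles for RASSF9-/- array 2, joined by a line over each gene's range, and a dashed line at the background limit of 78.4. Most genes have their 3 signals close together, while Ndufa4l2 lies in the background on both RASSF9-/- arrays and Cox7a2l has a low signal on array 2 alone.

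Complex IV had 10 members above WT on both arrays and 2 below, with medians of 0.17 on array 1 and 0.11 on array 2, and 8 were above on both with a common median and 7 after quantile normalization. The widely expressed subunits were among those above WT. Cox5b, which binds zinc, had a signal of 15154 in WT, 20791 on array 1 and 18488 on array 2. Its log2 difference was 0.37 (standard error 0.31, adjusted p = 1.00 from limma), and its 3 other probe sets above background all had both RASSF9-/- arrays above WT. Cox7a2 had 22497, 26718 and 27911, and Cox4i1 had 15606, 18974 and 16841. The signals of Cox6b1 were 23422, 23646 and 26191, which puts array 1 next to WT. Cox6a1 had 26407, 29475 and 26758, and its difference of 0.09 becomes -0.02 under quantile normalization, and array 1 of its second probe set was below WT. Cox8a had 4778, 5425 and 5140, with a difference of 0.14 that becomes -0.53 when its background probe set is averaged in.

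Cox7a2l, which promotes the joining of complexes III and IV into supercomplexes, had a signal of 9587 in WT, 9472 on array 1 and 4402 on array 2. Its 2 other probe sets had the same order, with 8159, 7499 and 2877 in the one and 6638, 6462 and 2834 in the other. Array 1 lay near WT in all 3 probe sets, with log2 differences of -0.02, -0.12 and -0.04, whereas array 2 was at -1.12, -1.50 and -1.23. The RASSF9-/- arrays differed from each other more than the mean differed from WT (-0.57, standard error 0.49, adjusted p = 1.00 from limma). Leaving out array 2 brings the difference to -0.02, and leaving out array 1 brings it to -1.12.

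**Figure D3:**
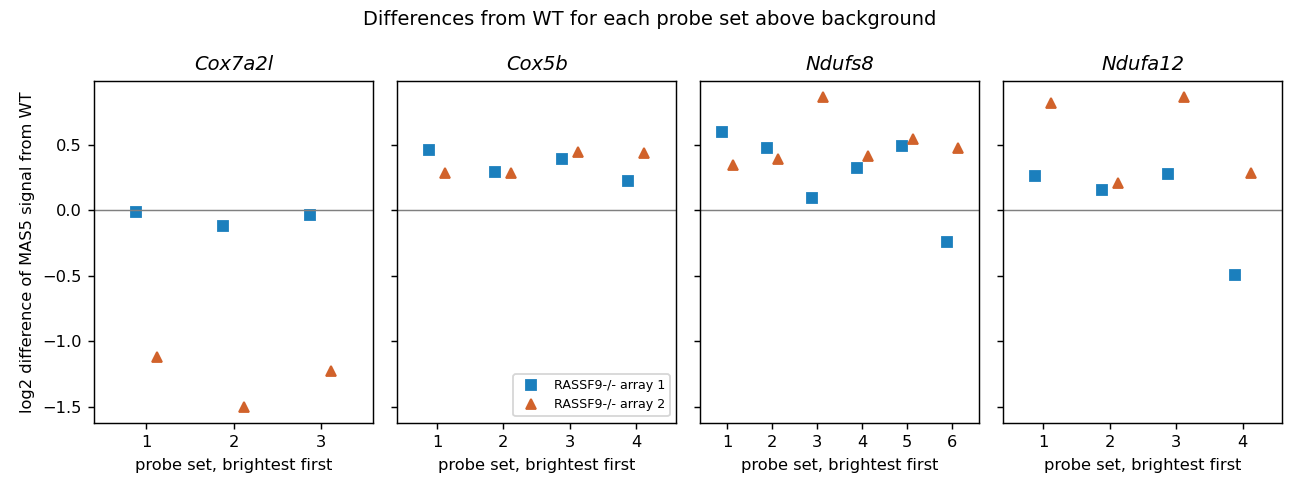
Log2 difference of MAS5 signal from WT for each probe set above background on all arrays, numbered from the brightest, for Cox7a2l, Cox5b, Ndufs8 and Ndufa12, with squares for RASSF9-/- array 1 and triangles for RASSF9-/- array 2. All 3 Cox7a2l probe sets have array 1 near 0 and array 2 at -1.12 or lower, whereas all 4 Cox5b probe sets have both arrays above 0.

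Cox7c, a small subunit, was measured by dim probe sets only. The brighter had a signal of 180.5 in WT, 68.0 on array 1, which is in the background, and 103 on array 2. With array 1 at the limit, the mean of the pair was at least 2.01-fold below WT, while array 2 alone was at 0.568 of WT. The other probe set was at 70.9, 86.8 and 49.9. As the brighter set lay near the background and the other did not have the same order, the order of the arrays for this gene is not settled. Most tissue isoforms were in or near the background. Cox7b2 and Cox8b, which are testis and muscle isoforms, were in the background on all arrays, and Cox4i2, the lung isoform, had 46.6, 137 and 74.8. Cox6a2 had 77.4 in WT, 121 on array 1 and 17.6 on array 2, and Cox7a1 had 93.8, 39.0 and 42.5. These muscle isoforms were above the limit on 1 array each. Cox6b2, a testis isoform, had 88.0, 161 and 90.5, so only array 1 stood away from WT. Cox8c, also a testis isoform, had 261, 307 and 317, all above the limit, but array 2 of its second probe set was below WT.

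Complex V makes ATP, and 12 of its 17 members were above WT on both arrays, 1 was below and 4 were on opposite sides. Its medians were 0.07 on array 1 and 0.19 on array 2, but with arrays scaled to a common median the first was -0.05 and 7 members were above WT on both, and 8 were after quantile normalization. As deposited, 13 of the 17 members were higher on array 2 than on array 1. The 5 subunits of the F1 head (Atp5a1, Atp5b, Atp5c1, Atp5d and Atp5e), where ATP is made, had medians of 0.17 on both arrays. By their brightest probe sets, 4 of them were above WT on both, or 3 with a common median. A second probe set of Atp5a1 had 6283, 6085 and 6787, with array 1 below WT. That of Atp5d had 7059, 7205 and 7047, with array 2 just below WT. Atp5b, the catalytic beta subunit, had a signal of 16566 in WT, 15616 on array 1 and 18871 on array 2. WT lay between the 2 arrays, at a log2 difference of 0.05.

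The 3 genes of the c ring, the rotor turned by protons, encode the same mature protein and differ in their import sequences. Atp5g1 had a signal of 2477 in WT, 3331 on array 1 and 5037 on array 2. Its log2 difference was 0.73 (standard error 0.39, adjusted p = 1.00 from limma), with both RASSF9-/- arrays above WT and far from each other. Its other probe set was in the background on every array. Atp5g2 had 6807, 7942 and 8144, a difference of 0.24 that becomes -0.41 when its 2 probe sets in or near the background are averaged in. Atp5g3 had 18460, 19429 and 19212, at 0.07. Of the other subunits, Atp5md, a small subunit involved in joining ATP synthase dimers, had 6440 in WT, 7917 on array 1 and 11742 on array 2, at 0.58 (standard error 0.37). Atp5l, subunit g, was flat at 8476, 8074 and 8376. The 9 subunits outside the head and the ring had medians of 0.00 on array 1 and 0.20 on array 2.

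Probe sets that the rule left out were read as a further measure on the same arrays. There were 83 of them for 48 members, and 63 of these, from 41 members, were above background on all arrays. Those 63 had median log2 differences of 0.02 on array 1 and 0.27 on array 2. On array 2, 57 of them were on the same side of WT as the brightest probe set, and on array 1, 39 were. Both arrays were above WT in 31 of them and below in 8. By the brightest probe sets, array 2 was above WT in 63 of the 75 members tested and array 1 in 49. The same counts were not made for the probe sets of all genes. The share on the same side was not tested between the arrays. The probe sets of a gene share its RNA sample and are not replicates.

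Other genes of the pathway were read from lists, and 0 genes of any of them passed the adjusted threshold of limma. At an unadjusted p of 0.05 the counts are given for each list that had any. Of 5 subunits outside the rule, 2 were above WT on both arrays and 2 below. Cyc1, the cytochrome c1 of complex III, had a signal of 6073 in WT, 7409 on array 1 and 9758 on array 2, and Ndufab1, the acyl carrier protein found in complex I, had 4810, 6337 and 6851. Higd2a, a complex IV factor, had 10403, 8985 and 9899. Of 47 assembly factors, 24 were above WT on both arrays and 10 below, with a median log2 difference of 0.17, or 19 and 9 with a common median. Among them, the complex IV factor Coa7 had 200, 406 and 481, the complex I factor Ndufaf6 112, 207 and 347, and the complex II factor Sdhaf1 712, 1160 and 1186, each with both RASSF9-/- arrays above WT.

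The genes that feed the chain had medians close to that of all genes. Of 18 electron carriers and coenzyme Q genes, 5 were above WT on both arrays and 5 below, with a median of 0.02. Coq7, a hydroxylase of coenzyme Q synthesis, had 683 in WT, 967 on array 1 and 1108 on array 2, and Dhodh, an enzyme of pyrimidine synthesis that reduces coenzyme Q, had 125, 190 and 258. Etfdh, which brings electrons from fatty acid oxidation, had 2248, 1709 and 1750. Of 24 citrate cycle and pyruvate dehydrogenase genes, 9 were above and 5 below on both, with a median of 0.07, and 1 had an unadjusted p under 0.05. This was Pdk1, a kinase that inhibits pyruvate dehydrogenase, with signals of 1281 in WT, 267 on array 1 and 336 on array 2, a log2 difference of -2.10 (standard error 0.46, adjusted p = 0.364 from limma). Pdk2, a second such kinase, had 274, 124 and 64.6, and Suclg2, of succinyl-CoA synthetase, had 1776, 3058 and 2465.

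The list of regulators of mitochondrial biogenesis, which is not limited to transcription factors, had 12 of 24 genes above WT on both arrays and 3 below. Its median was 0.09. Pprc1, a coactivator, had 684 in WT, 1048 on array 1 and 1348 on array 2, Myc had 2039, 2731 and 4141, and Twnk, the helicase of mitochondrial DNA, had 556, 778 and 759. Among the factors whose cores were counted in promoters, Nrf1 had 290, 318 and 438, and Yy1 had 5212, 6440 and 7875. In both, the 2 RASSF9-/- arrays lay above WT. Gabpa had 1234, 1052 and 761, and Esrra, an ERR gene, had 826, 677 and 628, both below WT on both arrays. Esrrg, another ERR gene, had 119, 144 and 91.7, with WT inside the range of the pair. Of 13 carriers and porins, 7 were above and 4 below, with a median of 0.08. Slc25a4, which exchanges ADP and ATP, had 4671, 6835 and 6503, whereas Ckmt1, the mitochondrial creatine kinase, had 2641, 1138 and 960, a difference of -1.34 (standard error 0.37, adjusted p = 0.553 from limma), and it was the 1 gene of this list at an unadjusted p under 0.05. Ucp3, an uncoupling protein, was near the background at 134, 76.5 and 97.6.

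Protein import and mitochondrial translation, which supply and complement the nuclear subunits, had larger median differences than the subunits themselves. Of 26 import genes, 16 were above WT on both arrays and 3 below, with a median of 0.37 (15 and 2 with arrays scaled to a common median) and 4 at an unadjusted p under 0.05. Gfer, which oxidises proteins on import, had 878 in WT, 1789 on array 1 and 2059 on array 2. The chaperonin pair Hspd1 and Hspe1 had 6084, 11381 and 12909, and 5190, 9465 and 11394. Of 76 mitochondrial ribosomal proteins, 53 were above and 3 below, with a median of 0.32 (48 and 1 with a common median) and 5 at an unadjusted p under 0.05. Mrps28 had 829, 1668 and 2142, Mrps11 had 487, 1025 and 1098, and Mrps18b had 1267, 2306 and 2746, each with both RASSF9-/- arrays above WT. The subunits' median was 0.19 on the same scale. The lists were not tested against each other.

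**Figure D4:**
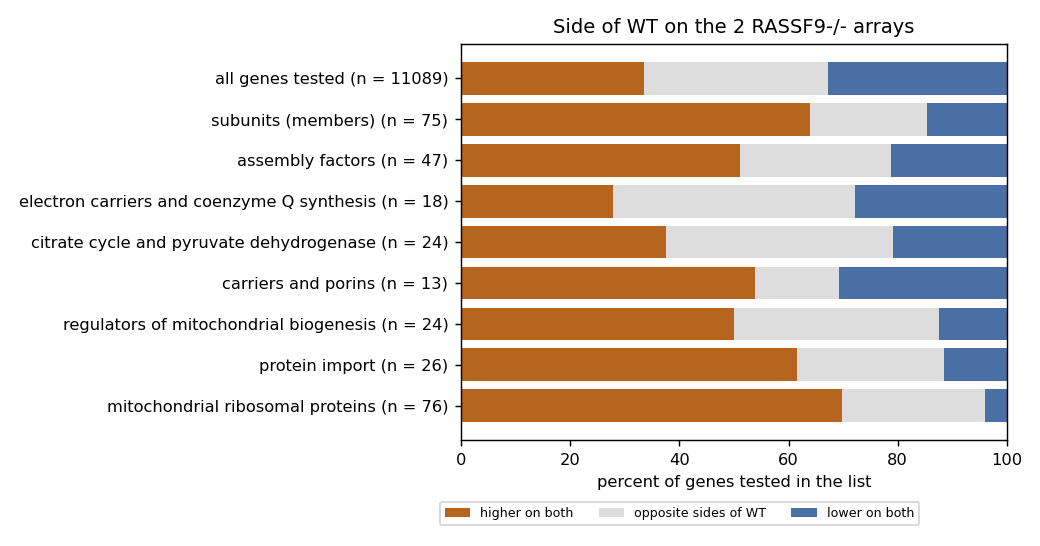
Percent of the tested genes of each list that had a signal above WT on both RASSF9-/- arrays, on opposite sides of WT, or below WT on both, with the number of genes tested after each name. The subunits have 64% above WT on both arrays, against 33.6% of all 11089 genes tested, or 44% and 32.6% with arrays scaled to a common median.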

How the data were processed

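The deposited values are MAS5 signals of the Mouse Genome 430 2.0 array (Affymetrix), an intensity on a linear scale per probe set, which the authors had brought to a trimmed mean of 500 on every array. Trimming 2% at both ends gave this mean on the values. The software version and detection calls were not used here. Besides 64 controls there were 45037 probe sets, of which the platform annotation gives 34945 a single symbol, 932 several and 9160 none.

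Log2 signals were compared without further normalization in limma 3.58.1 (R 4.3.3) by lmFit and eBayes. The test was two-sided and allowed for an intensity trend, and p-values were adjusted by the Benjamini-Hochberg method over all 11089 genes tested. The fit has 1 residual and 5.31 prior degrees of freedom. Differences are RASSF9-/- minus WT, and a pathway list is described by counts and its median. The procedure was tested on simulated data. The members, lists and rules were chosen with earlier results of these data known. Named were, in each complex, up to 3 members above and 3 below WT on both arrays by the smaller difference, all of complex II, the 3 highest and 3 lowest of array 2 over array 1, the tissue isoforms with their widely expressed partners, and up to 3 genes of each other list. Members cited only for a subunit role or a probe set, shared probe sets, and the genes of the promoter factors were added after their values were seen.

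A signal at or under 78.4, the highest of 27 Bacillus subtilis control probe sets, was treated as background and set to it for a lower bound of the fold. The alternatives were arrays scaled to a common median, quantile normalization, no filter, a 75th percentile filter, adding 32 before log2, averaging all probe sets of a gene, dropping the intensity trend, the methods' t-test, raising background signals to the limit, and omission of either RASSF9-/- array. A filter at the 95th percentile and subtraction of the median of all genes were chosen after seeing the data. Sequences came from the RefSeq promoter table of GRCm38.p6.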

Additional observations from a re-analysis of the deposited data

How the results depend on the processing

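The count of 0 called members was the same under every alternative that gave a test, and the direction of the members' median stayed above WT under all of them. The number of members below WT on both arrays was 7 with arrays divided by their medians, in place of 11. With all probe sets of a gene averaged, the members' median log2 difference was 0.12, in place of 0.19, and that of complex IV was 0.091, in place of 0.17. Leaving out RASSF9-/- array 2 or array 1, which leaves 1 array a group and no test, gave a median of 0.10 to 0.20 for the members. For complex I it was 0.081 to 0.36 and for complex V 0.074 to 0.19, both lowest without array 2. For complex II it was 0.11 to 0.24 and for complex IV 0.11 to 0.17, both lowest without array 1. For complex III it was -0.020 to 0.16, below WT without array 2.

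Many of the 358 values for the 33 named members could not change direction. The filters, dropping the trend and the t-test leave a member's log2 difference as it is. Raising background signals alters it only for members with an array in the background. Of the 358 values, 351 kept their direction and side of the threshold, and 7, of 6 genes, changed sign. These were Ndufb9 with arrays divided by their medians (0.0078), Cox6a1 under quantile normalization (-0.022), Cox6a1 (-0.010), Cox8a (-0.53) and Atp5g2 (-0.41) with probe sets averaged, and Ndufa5 (-0.094) and Ndufa9 (-0.14) without array 2, where they were 0.75 and 0.59 without array 1. Averaging the probe sets also moved 10 named members by over 1.5 times without a change of sign. These were the flat Ndufb9, Sdha (0.22 to 0.84), Cox8c (0.26 to 0.03), Ndufs4 (0.57 to 0.08), Uqcrq (0.32 to 0.08), Atp5g1 (0.73 to 1.31), Ndufa5 (0.33 to 0.59), Cox7c (-1.11 to -0.61), Uqcr10 (-0.22 to -0.44) and Uqcrh (-0.13 to -0.21). The mean takes in probe sets in or near the background for Cox8a, Atp5g2, Sdha, Atp5g1, Uqcrq, Uqcr10, Ndufs4, Cox7c and Ndufb9. The part of these probe sets in each move, and the cause for the other genes, was not tested.

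No paired analysis was possible because WT has 1 array. The spread within WT is unmeasured, probe sets near the background have no reliable order, and mouse, culture and stamp cannot be told apart between the RASSF9-/- arrays.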
